A study of Mus musculus with 4 samples.

Results

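The genes described here encode the subunits of the transcription factor NF-kappaB (Nfkb1, Nfkb2, Rel, Rela and Relb), its inhibitors (Nfkbia, Nfkbib and Nfkbie) and the related protein Bcl3. They were found by gene symbol in the annotation of the array platform. Of the 9 genes, 8 had at least 1 probe set under their own symbol, 11 probe sets in all among 12422 that were not manufacturer's controls. No probe set used here carried the symbol Nfkb1 alone, so Nfkb1 was not analysed here. The series measured total RNA from hippocampal area CA1 on 4 Affymetrix arrays, 1 per sample. All 4 samples were controls, from young male C57BL/6J mice, an inbred strain, that were handled only. Their RNA was taken at 1, 2, 4 and 6 h on the clock of a shock experiment, counted from the last shock of mice that are not analysed here. No shocked mouse entered any value below, and the number of mice behind each sample was not given in the sources used here.

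NF-kappaB works as a pair of Rel-family proteins held in the cytoplasm by IkB proteins, whose ankyrin repeats cover the signal that sends the pair to the nucleus. Signals from cytokine receptors, Toll-like receptors or, in neurons, synaptic calcium activate the IkB kinase, which marks IkB for destruction and frees the pair to bind kB sites in DNA. In the hippocampus the p65 and p50 subunits occur in neurons and glia and have been studied for their part in synaptic plasticity and memory. Several of the family's own genes, Nfkbia foremost, are textbook targets of NF-kappaB, which closes a feedback loop.

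The stretches of promoter below show the kB-like letters before the start sites of the inhibitor gene that gave a bright signal, Nfkbia, and of subunit and inhibitor genes that gave dim ones, Rel, Nfkb2 and Nfkbie. Sequences are from RefSeq, build GRCm38.p6, on the gene's own strand, 5′ to 3′, and capitals mark motif matches. Windows of 250 bases before to 50 bases after each start were searched on both strands for the consensus kB motif and for the nine-letter form GGACTTTCC, a part of the classic immunoglobulin kappa site. The 2 motifs can overlap.
Nfkbia, chr12:55492648-55492897, minus strand, the 250 bases before the start: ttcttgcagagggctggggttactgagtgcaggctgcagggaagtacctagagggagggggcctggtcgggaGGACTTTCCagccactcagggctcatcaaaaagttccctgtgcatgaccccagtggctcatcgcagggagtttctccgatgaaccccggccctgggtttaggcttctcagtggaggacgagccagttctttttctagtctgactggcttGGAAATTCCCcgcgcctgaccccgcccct
Rel, chr11:23771036-23771076, minus strand: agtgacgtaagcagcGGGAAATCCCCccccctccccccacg
Nfkb2, first annotated start, chr19:46304683-46304736, plus strand: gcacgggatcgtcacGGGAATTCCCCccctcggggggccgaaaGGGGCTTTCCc
Nfkb2, last annotated start, chr19:46305690-46305729, plus strand: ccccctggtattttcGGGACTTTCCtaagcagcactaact
Nfkbie, chr17:45555579-45555618, plus strand: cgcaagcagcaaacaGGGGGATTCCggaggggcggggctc

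In Nfkbia the nine-letter form lay at -178 to -170 and a consensus match at -29 to -20, counted from the start with -1 as the base just before it. The Rel promoter held overlapping consensus matches from -92 to -82. Promoter windows were in the table for 7 of the genes. The consensus motif was in the window of 5 of these 7 (Nfkb2, Rel, Nfkbia, Nfkbie and Bcl3), against 9.55% of 27025 genes, and the nine-letter form in 2 (Nfkb2 and Nfkbia), against 0.4% of genes. The windows of Rela and Nfkbib held neither. A match describes the letters and shows no binding, and genes with a match lay on both sides of the signal threshold described next.

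Of the 8 genes, Rela, Relb, Nfkbia and Nfkbib were at or above the pooled 40th percentile of signal, and Rel was near background. Nfkb2, Nfkbie and Bcl3 lay between. The 40th percentile of all values of the 4 arrays was a signal of 116.6, and the pooled 20th percentile, used as a floor, was 36.9. A probe set counted as at or above the line when its mean log2 signal, with values under the floor raised to it, reached the line, and as near background when at least 3 of the 4 arrays were under the floor. By probe set, 5 of 11 reached the line, against 58.2% of all probe sets, and 2 were near background, against 15.8%. By gene, 4 of 8 reached it, against 67.2% of all 8251 genes, and 1 of 8 was near background, against 10.4%. Signals are the deposited intensities on a linear scale, and the SD over the 4 arrays takes in hour, mice and array together. Levels are not compared between probe sets, since these differ in how strongly they bind.

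**Figure D1:**
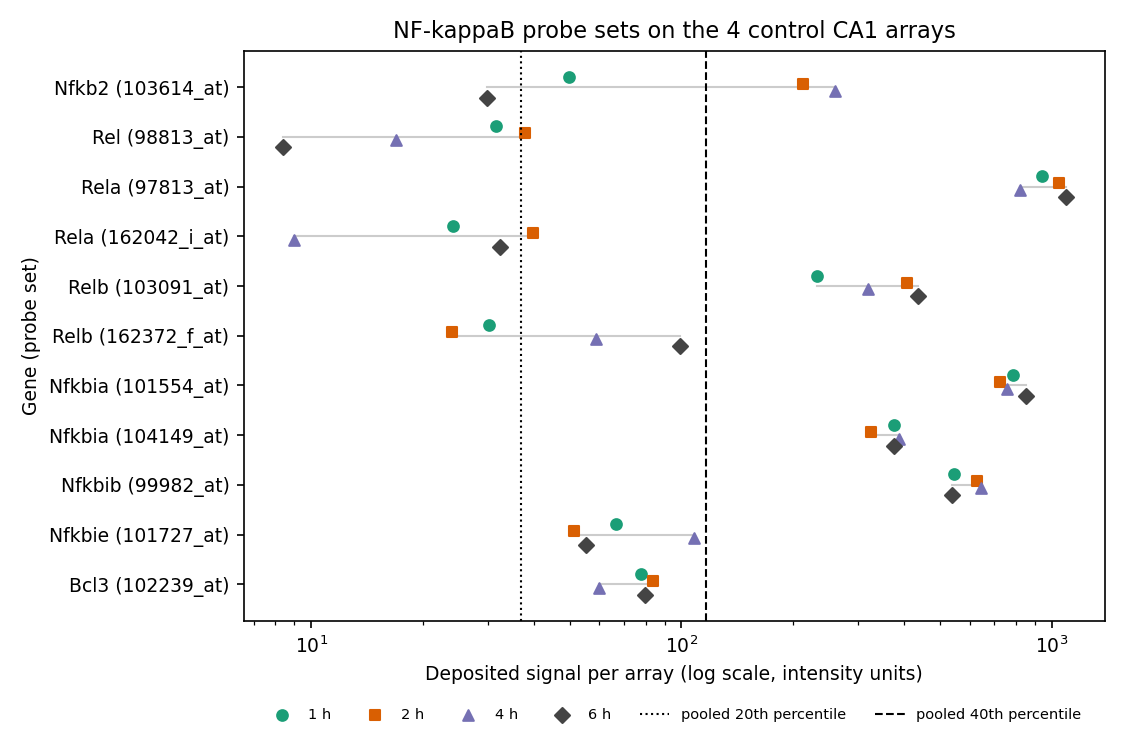
Deposited signal of each NF-kappaB probe set (rows) on the 1, 2, 4 and 6 h control arrays (points), on a log axis, with the floor of 36.9 (dotted) and the line of 116.6 (dashed). The brighter probe sets of Rela, Relb, Nfkbia and Nfkbib sit right of the dashed line on all 4 arrays, while Nfkb2 crosses both lines.

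Rela encodes p65, the subunit that carries the main transactivation domain. Its bright probe set, 97813_at, gave signals of 939, 1046, 822 and 1090 at 1, 2, 4 and 6 h, or 974 ± 120 (SD, n = 4). All 4 values were far above the line, and the highest was 1.33 times the lowest. The second Rela probe set, 162042_i_at, gave 24.2, 39.7, 9.0 and 32.3 and was near background. Its name marks an incomplete probe set, with fewer probes than the design called for. The probe sets of Rela thus did not give the same call, and the call rests on the brighter one.

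Relb encodes the subunit that pairs with p52 in the non-canonical branch of the pathway. Its bright probe set, 103091_at, gave 232, 406, 318.5 and 435 at 1, 2, 4 and 6 h, or 348 ± 91.7 (SD, n = 4). The 1 h array was the lowest and the 6 h array the highest, 1.88 times as high (1.875 before rounding), the widest range among the 5 probe sets that reached the line. The second, 162372_f_at, whose name marks probes shared within a sequence family, gave 30.3, 24.0, 58.6 and 98.8, all under the line. On it too the 6 h array was the highest, while the 1 h and 2 h values were under the floor and have no order.

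Nfkb2 encodes p100, the precursor of p52, which in its uncut form also acts as an inhibitor. Its only probe set gave 49.7 at 1 h, 213 at 2 h, 260 at 4 h and 29.8 at 6 h. Signals at 2 and 4 h were above the line, and that at 6 h was under the floor. This was the widest spread among the members, with an SD of 1.43 on the log2 scale. Its mean, with the 6 h value at the floor, came to 100.3, which made it the member just outside the line, while the one just inside, the bright Relb probe set, came to 338. Without the 1 h array, or without the 6 h array, Nfkb2 reached the line.

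Rel encodes c-Rel, best known from lymphocytes and also studied in hippocampal memory. Its only probe set gave 31.6, 37.8, 17.0 and 8.4 at 1, 2, 4 and 6 h. Only the 2 h value was above the floor, and barely so, and the 4 values lay at pooled percentiles 17.8, 20.3, 9.75 and 3.67. The order of values under the floor carries no information. At this signal the probe set does not separate a low level of c-Rel transcript from none.

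Nfkbia encodes IkBalpha, the inhibitor that is rebuilt fastest after NF-kappaB activation. Its brighter probe set, 101554_at, gave 786.5, 724, 757 and 851 at 1, 2, 4 and 6 h, or 779 ± 54.0 (SD, n = 4). The dimmer one, 104149_at, gave 374, 325, 386 and 374, or 365 ± 27.3 (SD, n = 4). Both were at or above the line on all 4 arrays, and on both the 2 h array was the lowest. The ratio of the brighter to the dimmer probe set was 2.10, 2.23, 1.96 and 2.27 over the hours. From 1 h to 4 h the brighter probe set fell and the dimmer one rose, and from 4 h to 6 h the reverse held. Their coefficients of variation, 6.93% and 7.48%, were the smallest among the members.

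Nfkbib encodes IkBbeta, an inhibitor that turns over more slowly. It gave 543, 630, 643 and 537 at 1, 2, 4 and 6 h, or 588 ± 55.9 (SD, n = 4). The 2 and 4 h arrays were higher than the 1 and 6 h arrays, within a range of 1.20-fold.

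Nfkbie, which encodes IkBepsilon, gave 66.7, 51.2, 108 and 55.2 at 1, 2, 4 and 6 h. Every value lay between the floor and the line, with the 4 h array, the highest, nearest to it. Bcl3 encodes an IkB family protein that acts in the nucleus with p50 and p52 homodimers, often as a coactivator. It gave 77.7, 83.8, 59.9 and 79.5, also between the floor and the line on all 4 arrays. The Bcl3 signal averaged 75.2 ± 10.5 (SD, n = 4).

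The 4 arrays were also set against time. Each hour had 1 array, so differences between hours were counted and not tested. Among the 5 probe sets that reached the line, 0 differed 2-fold or more from 1 h in the 2 h sample, against 10.2% of all 7233 tested probe sets, 0 at 4 h, against 6.18%, and 0 at 6 h, against 6.51%. The nearest was Relb, 1.75 times its 1 h signal at 2 h and 1.88 times at 6 h. The median log2 difference of the 5 from 1 h was 0.16, 0.04 and 0.11 at 2, 4 and 6 h, beside -0.0033, 0.02 and 0.02 for all tested probe sets. Centring each array on its median shifted the latter to -0.13, -0.09 and -0.12 and turned the members' median to -0.06 at 4 h and -0.03 at 6 h, so their sign at 4 and 6 h depends on the scaling. At 2 h the median was 0.15 after quantile normalization and 0.03 after centring. With that centring and after quantile normalization Relb stayed above its 1 h signal at each hour.

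**Figure D2:**
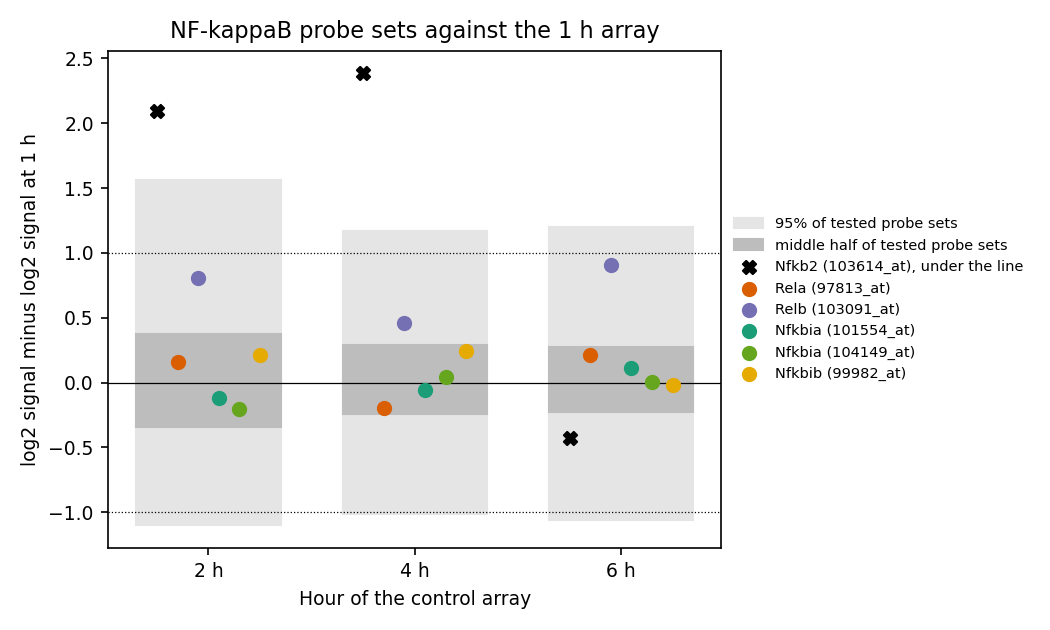
Log2 difference from the 1 h array at 2, 4 and 6 h for the 5 probe sets that reached the line (circles) and for Nfkb2 (crosses), over the central 95% (light) and middle 50% (dark) of all 7233 tested probe sets. Relb lies above the dark box at each hour but within 2-fold (dotted lines), and Nfkb2, below the line in mean signal, lies 2.10 and 2.38 above its 1 h value at 2 and 4 h.

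A straight trend over the hours was tested with limma across all 7233 probe sets, and 0 of the 5 member probe sets passed, as did 0% of all probe sets. The smallest adjusted p over all of them was 0.9996, and 196 had an unadjusted p under 0.05, none of them a member. Relb had the steepest member slope, 0.12 ± 0.09 (SE) in log2 units an hour (unadjusted p = 0.206, adjusted p = 0.9996 by limma). Without the 2 h array, its slope was 0.18 ± 0.09, with an unadjusted p of 0.0567 and an adjusted p of 0.888 by limma. The other 4 slopes lay between -0.0084 and 0.03 log2 per hour.

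Over the 4 arrays Relb had the largest spread of the members past the line, and the Nfkbia probe sets the smallest. A range over the 4 arrays of less than 1.5-fold held for 4 of the 5, against 46.4% of all tested probe sets, and 0 of the 5 ranged over 2-fold or more, against 22.6%. The median SD of log2 signal was 0.14 for the 5 and 0.28 for all tested probe sets. Since dim probe sets vary more, each SD was ranked among tested probe sets of like brightness (3 equal classes). The Nfkbia probe sets stood at percentiles 11.6 and 6.85, Nfkbib at 11.8, Rela at 41.4 and Relb at 80.3. These ranks describe these 4 arrays and are not a test. Without the 1 h array the SD of Relb was 0.236 in place of 0.41, and without the 2 h array that of the dimmer Nfkbia probe set was 0.0251 in place of 0.11. Without the 4 h array the SD of the bright Rela probe set was 0.111 in place of 0.18, and without the 6 h array that of the brighter Nfkbia probe set was 0.0602 in place of 0.10.

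**Figure D3:**
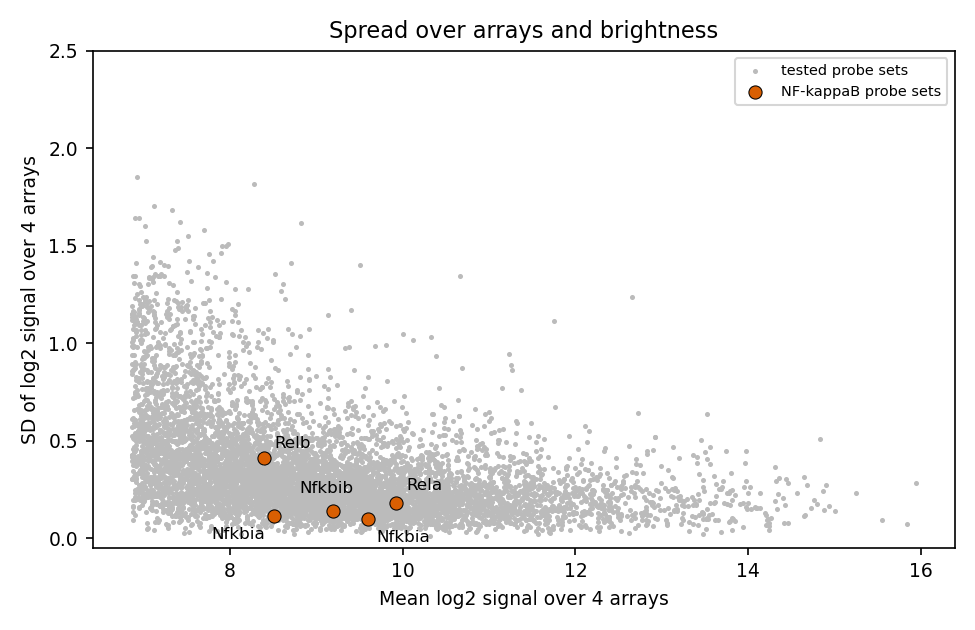
SD of log2 signal over the 4 arrays against mean log2 signal for the 7233 tested probe sets (grey) and the 5 NF-kappaB probe sets among them (orange). The Nfkbia and Nfkbib points, with SDs of 0.10 to 0.14, lie low in the cloud, Rela, at 0.18, lies near its middle, and Relb, at 0.41, lies higher.

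The 2 h array differed more from the other arrays than these did from each other. The SD of the log2 difference over all tested probe sets was 0.616 to 0.661 for the pairs that include it and 0.534 to 0.554 for the other pairs. Its 3′ over 5′ signal ratio for Gapdh, a control for RNA quality, was 1.08, against 4.10, 3.62 and 3.95 at 1, 4 and 6 h. Gapdh signal was thus nearly even between its ends on the 2 h array and weighted to the 3′ end on the 1, 4 and 6 h arrays. Without that array, the same 4 genes reached the line and Rel was still near background. The part of this difference in RNA quality between the arrays in the low 2 h values of both Nfkbia probe sets was not tested.

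The profile most like that of Relb, the most variable member past the line, was that of Nxt1, an mRNA export factor, with signals of 225, 392, 295 and 404. The root mean square difference of their centred log2 profiles over the 4 arrays was 0.0299. Dnajb13, at 0.0312, and Papola, a poly(A) polymerase, at 0.0332, came next. The nearest member, Rela, was at 0.288, and 991 tested probe sets, Rela included, were at most that far from Relb. No other member followed Relb closely over these 4 arrays.

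Genes that act around NF-kappaB differed by list in the share that reached the line, and this was not tested. These genes were taken from 4 lists of 94 genes, of which 76 had a probe set, each represented by its brightest. IkB kinase and adaptor genes reached the line in 17 of 20 cases and nuclear coactivators and corepressors in 10 of 11, against 67.2% of all genes. Ligands and receptors reached it in 7 of 15 cases and NF-kappaB target genes in 13 of 30. Near background were 12 of the 30 target genes, 2 of the 15 ligands and receptors and 0 of both other lists, against 10.4% of all genes. Limma called a trend for 0 of the 47 genes that reached the line.

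**Figure D4:**
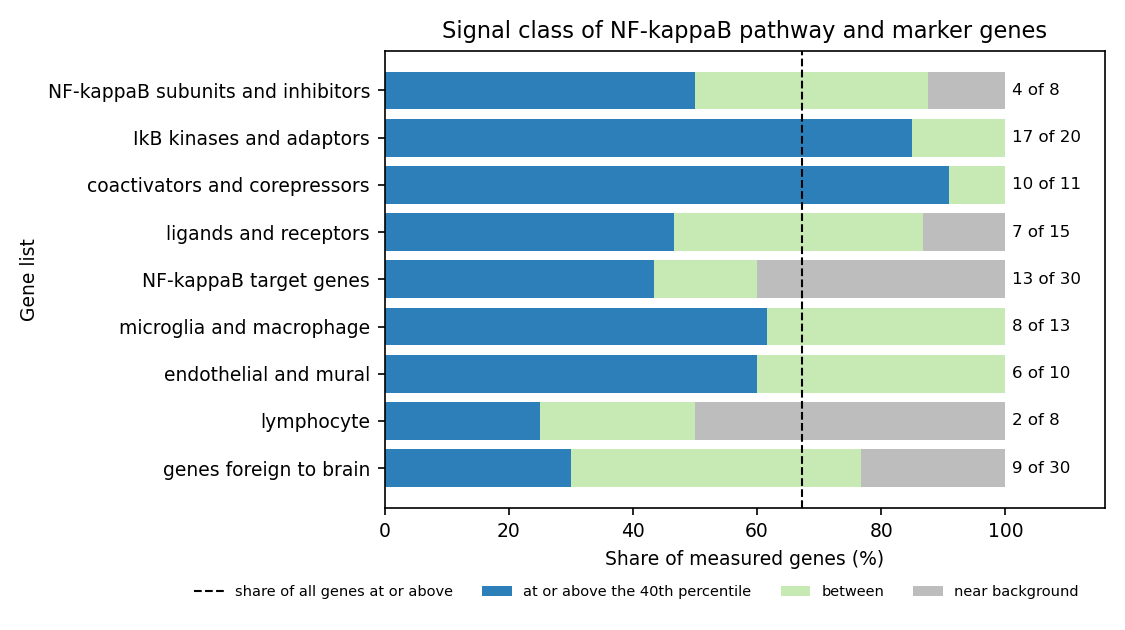
Share of measured genes, in percent, at or above the 40th percentile (blue), between (green) and near background (grey) for the NF-kappaB members, the pathway lists and marker lists, with counts at the right and the share of all genes, 67.2%, as a dashed line. Kinase, adaptor and cofactor lists pass the dashed line. The members and all other lists shown fall short of it, the microglial and the endothelial and mural lists by little.

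Among the kinases and adaptors, Ikbkb, the catalytic subunit of the canonical IkB kinase, gave 112.5, 159, 173 and 132 at 1, 2, 4 and 6 h, just around the line. Ikbkg, its regulatory subunit NEMO, gave 321.5, 223, 222 and 313 on its brighter probe set and 144, 253, 230 and 270 on the other. The Ikbkg probe sets moved in opposite directions between 1 h and 2 h, so no direction can be given. Irak1, a kinase of Toll-like and interleukin-1 receptors, and Tank, a TRAF-binding adaptor, varied least of those past the line, with 425 ± 21.7 and 235 ± 25.7 (SD, n = 4). Among those past the line, Traf2 and Tradd, adaptors of the TNF receptor, varied most: Traf2 gave 382, 393, 535 and 194, and Tradd gave 207.5, 442, 294 and 193. Myd88, the adaptor of Toll-like receptors, lay between floor and line in mean, with 47.3, 39.2, 156 and 113.

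Ligand and receptor genes lay on both sides of the line. Il1b, interleukin-1 beta, gave 12.0 to 17.1 and was under the floor on all 4 arrays. Tnf, the cytokine that gives the canonical signal, gave 34.5, 22.3, 178 and 39.4, with the 4 h array far above the other three. Lta, the ligand lymphotoxin alpha, gave 230, 425, 176 and 260 on its brighter probe set, above the line on all 4 arrays, with the 2 h array the highest. Its other probe set gave 27.2 to 33.0, under the floor on all 4 arrays, so the Lta probe sets did not give the same call. Tnfrsf1a, the main TNF receptor, averaged 192 ± 41.3 and Tnfrsf1b 193 ± 34.8 (SD, n = 4). The other Tnfrsf1a probe set gave 147, 175, 282 and 169, highest at 4 h, where the first was lowest. Il1r1, the interleukin-1 receptor, gave 72.4 to 96.4, under the line on every array. Il18, a cytokine of the interleukin-1 family, averaged 275 ± 40.3 (SD, n = 4) and was steady. Tnfrsf11a, the receptor RANK, gave 112, 296, 303 and 212. Ltbr, the lymphotoxin beta receptor of the non-canonical branch, gave 291, 212, 80.9 and 55.5, and its trend, -0.50 ± 0.13 (SE) in log2 units an hour, did not pass (unadjusted p = 0.00582, adjusted p = 0.9996 by limma).

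The target list was mixed, with genes of inflammation and of survival at both ends of the range. Tnfaip3, the feedback inhibitor A20, gave 14.2, 27.3, 20.4 and 24.0, and Icam1, an adhesion molecule, gave 3.6, 21.8, 19.2 and 4.1. Ccl2, a monocyte chemokine, gave 8.3 to 36.0, and all 4 arrays were under the floor for each of these 3 genes. Csf3, a cytokine of granulocytes, gave 501.5, 528, 694 and 639, above the line on all 4 arrays. Nos2, inducible nitric oxide synthase, gave 59.5 to 126 and lay between. Ptgs2, cyclooxygenase 2, which neurons also make, lay just under the line in mean with 111, 130, 94.5 and 121. Bcl2l1, a survival factor, averaged 1841 ± 40.3, Sod2, mitochondrial superoxide dismutase, 413 ± 42.0, and Fth1, ferritin heavy chain, 16396 ± 2016 (SD, n = 4). Bcl2l1 had a second probe set near background, at 18.3 to 20.3. By contrast, the survival gene Birc3 gave 21.8 to 63.4, under the line on all 4 arrays, and Myc, a growth regulator, was near background at 3.6 to 45.1. Vcam1, an adhesion molecule of endothelium, averaged 289 ± 50.9 (SD, n = 4) on its brightest probe set, another was at or above the line on all 4 arrays at 135.5 to 193, and a further one was near background at 13.5 to 23.7. Ier3, a stress-response gene, gave 122, 159.5, 144.5 and 239, and Irf1, an interferon regulatory factor, gave 135, 160, 52.0 and 186.

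Among the nuclear cofactors, Crebbp, the acetyltransferase CBP, gave 1598, 714, 1375 and 1220, with the 2 h array the lowest. Hdac2, a histone deacetylase, gave 1416, 919, 636.5 and 1200, and Hdac1 gave 151, 233, 213 and 204. Tle1, a corepressor, gave 432, 277.5, 489 and 217. Cdk9, the elongation kinase, and Kat2b, an acetyltransferase, varied least of those past the line, with 905 ± 60.2 and 383 ± 53.1 (SD, n = 4). A second Kat2b probe set gave 17.2, 75.8, 26.2 and 7.3 and was near background, so the Kat2b probe sets did not give the same call. At 2 h against 1 h the list medians of log2 difference were -0.35 for the 10 cofactors, 0.32 for the 7 ligands and receptors, 0.01 for the 17 kinases and adaptors and -0.02 for the 13 targets. The kinase and adaptor median turned to -0.11 with quantile normalization or with median centring. With these scalings, in that order, the target median was -0.12 and -0.14, that of ligands and receptors 0.17 and 0.19, and that of cofactors -0.45 and -0.47. The median of all tested probe sets at 2 h was -0.0033 as deposited, -0.05 with quantile normalization and -0.13 with median centring.

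CA1 tissue holds several cell types that can carry these transcripts, and in such bulk samples fewer cells of a type and less RNA per cell cannot be told apart. Set against the labelled tissue, the neuronal genes Snap25, Syt1, Nefl, Stmn2 and Eno2 were above the line on all 4 arrays. Map2, another neuronal gene, reached the line in mean but gave 19.5 at 1 h, under the floor, and 656, 120.5 and 129 at 2, 4 and 6 h. The CA1 pyramidal markers Wfs1, Neurod6, Pou3f1 and Nrgn were also above the line on all 4 arrays. The single Camk2a probe set, another pyramidal marker, gave 41.0 to 351 and did not reach the line in mean. Interneuron markers reached the line in 7 of 7 cases. Astrocyte markers reached it in 7 of 7 cases and summed to 19980 to 21963 over the arrays. Oligodendrocyte markers reached it in 5 of 6 cases and summed to 21780 to 28130. Microglial markers reached the line in 8 of 13 cases and summed to 8358 to 9648 over the arrays. Endothelial and mural markers did so in 6 of 10 cases, summing to 1610 to 2015, and lymphocyte markers in 2 of 8, summing to 792 to 857. The share of all genes was 67.2%, near those of the microglial and the endothelial and mural markers. Of the T cell genes, Cd3e, Cd3g and Cd8a were near background, while Cd4, which other cells also carry, gave 315, 320, 168 and 79.6 and reached the line. The other lymphocyte marker that reached the line, Ms4a1, gave 271, 272, 419 and 393, above it on all 4 arrays. Which cells gave the Rela, Relb, Nfkbia and Nfkbib signals was not tested.

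The line is no detection call. Of 30 measured genes chosen as markers of tissues other than brain, 9 reached it, with means of up to 819, and 7 were near background. Expression of each of these genes in brain was not checked. Among them, Tnp1, a protein of sperm chromatin, gave 590 to 1074, and Lor, a protein of the skin surface, gave 454 to 576.5. Reaching the line therefore does not by itself show that a gene is expressed in CA1.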

How the data were processed

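The deposited table gave a linear intensity for each probe set on each of 4 arrays. The software behind it was not given in the sources used here. The arrays' means after trimming 2% at each end were 500.3 and differed by 0.00616%, so the authors' intensity values appear scaled to one mean and were used as deposited. Percentiles were pooled over 4 arrays and 12422 probe sets, leaving out 66 manufacturer's controls. Values under the 20th percentile (36.9) were raised to it before log2 was taken, and 7233 probe sets with a mean at the 40th percentile (116.6) or more were tested. Platform symbols were updated or matched through gene identifiers for 10817 of 10833 probe sets with 1 symbol. The 396 with several symbols and 1193 with none were not named.

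The 4 samples formed 1 control group. The trend fit used limma (slope per hour, 2 residual degrees of freedom, variance prior with trend, two-sided, Benjamini-Hochberg at 0.05) and was tested on simulated data. The members and gene lists were chosen with earlier results of these data known. In each pathway list the text names preset key genes and the 2 most and 2 least variable genes past the line. List members outside that rule, markers and brain-foreign genes were picked for naming with their values in view. The likeness measure was the root mean square difference of centred log2 profiles. Nothing says that the samples came from separate mice, so p-values measure only the spread between them. R 4.3.3, limma 3.58.1, Python 3.11.15, pandas 2.3.3 and matplotlib 3.10.9 were used.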

Additional observations from a re-analysis of the deposited data

Results flagged for a closer look

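Of 43 probe sets checked for an array far from the other three, the members and the named pathway genes, 2 were picked out, both at 4 h and neither a member. Chance flags about 1 in 20 such groups. Traf6, an adaptor of Toll-like receptors and interleukin-1 receptors, had a signal of 249 at 4 h, against 182, 184 and 183 at 1, 2 and 6 h. Its other probe sets lay below the line in mean. Tnf had 178 at 4 h, against 34.5, 22.3 and 39.4 at 1, 2 and 6 h, of which the 1 and 2 h values were under the floor. Both differences rest on 1 array and could not be tested.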

How the results depend on the processing

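The 5 member probe sets and 4 genes that reached the line did so under every normalization, floor, filter and left-out array tried. Nfkb2 joined them with a floor at the 30th percentile, a filter at the 30th percentile, or without the 1 h or the 6 h array, and Bcl3 joined with that filter. The count near background was 0 when all 4 arrays had to be under the floor, 0 with the line at the 10th percentile and 4 with it at the 30th, in place of 2. At 2 h against 1 h, 1 member was at least 2-fold apart with the floor or the filter at the 30th percentile (Nfkb2) and 1 at a threshold of 1.5-fold (Relb). At 4 h it was 1 with that floor and 1 with that filter, and at 6 h it was 1 at 1.5-fold. Other reference arrays, tried after the data had been seen, gave 0. Limma called 0 members in all 15 alternatives. Without the 2 h array it called 32 of 7217 probe sets, none a member, on an infinite prior degree of freedom. Pathway genes at the line numbered 41 to 55, in place of 47. For single members, 8 of 88 alternative means moved by more than 1 SD, all for Rel or the dim Rela probe set, whose SD is set by the floor. Of 88 alternative SDs, 24 moved, among them those of Relb, Rela and Nfkbia when 1 array was left out. No paired analysis was possible because the samples form 1 group. The number of arrays limits precision, and below the floor no order of values can be read.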

Other observations

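Among the 17 target genes under the line, the highest array was that of 1 h for 1, 2 h for 6, 4 h for 8 and 6 h for 2. Of all 2708 genes under the line, the highest array was that of 1 h for 16.1%, 2 h for 22.9%, 4 h for 30.1% and 6 h for 30.9%. Only 12 of the 17 had a value at or above the floor on at least 1 array, and for the rest no order can be read. Besides Tnf, Cxcl1, a neutrophil chemokine, gave signals of 19.0, 53.8, 170.5 and 18.8 over the hours. Its second probe set gave 16.7, 14.7, 26.2 and 14.5. Tnfsf11, the ligand of RANK, had 8.2, 62.4, 141 and 12.5, and Il6 had 24.8, 25.3, 72.9 and 6.8. Of the 11 member probe sets, 0 were highest at 1 h, 3 at 2 h, 4 at 4 h and 4 at 6 h. For all genes at or above the line, these shares were 23.7%, 29%, 23% and 24.4%. Members highest at 4 h were Nfkb2, Nfkbie, Nfkbib (643 against 630 at 2 h) and the dimmer Nfkbia probe set (386 against 374 at 6 h). The bright Rela probe set and Bcl3 were lowest at 4 h. Microglial markers summed to 9564, 9648, 8358 and 9114 over the hours, and lymphocyte markers to 807, 857, 792 and 813. Endothelial and mural markers summed to 1740, 1610, 2004 and 2015. The pattern at 4 h was noticed in the values, rests on 1 array, and was not tested.

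The other probe sets of several pathway genes gave different profiles. Traf6 had 152, 33.8, 158 and 105 on one further probe set and 15.8, 105, 139.5 and 10.1 on another. Nfkbiz, an atypical IkB protein of the nucleus, had 134, 134.5, 114 and 86.0 on its brighter probe set and 14.3, 43.7, 117 and 17.4 on its dimmer one.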
